A study of Mus musculus with 18 samples.

Results

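Transcripts of 8 genes of the capillary endothelium were followed through mouse lung after 4 weeks of reduced oxygen. The genes are Plvap, Esm1, Apln, Aplnr, Cd34, Emcn, Cxcr4 and Gpihbp1, and they were found by symbol among the 23356 features of the deposited fragment table. All 8 had a usable estimate in each of the 18 libraries and passed the filter on low counts, which left 15388 genes for testing. Plvap and Esm1 were chosen by their low values in hypoxia in these same libraries, and the others as genes of the same cells, so the hypoxia values of Plvap and Esm1 are a description without a test.

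The libraries came from lungs of male C57BL/6 mice in 6 groups of 3. The groups were beta-arrestin 1 -/- mice in hypoxia and in normoxia, mice labelled beta-arrestin 2 -/- in hypoxia and in normoxia, and wild type mice in hypoxia and in normoxia. Hypoxia was 4 weeks at a pressure equal to 18000 feet (PAO2 of about 70 mmHg), and normoxia was normal altitude (PAO2 of about 150 mmHg), in mice that entered at 8 to 12 weeks and carry a labelled age of 12 to 16 weeks. Poly(A) RNA came from about 30 mg of frozen whole lung, so vessels, airways, parenchyma and blood cells were measured together. In such tissue, fewer cells of a type and less RNA per cell cannot be told apart. Nothing in the labels ties a library to its own animal, and the spread behind each p-value may therefore be technical. The labels name each genotype with no promoter or cell type for a deletion, and no cell type was isolated.

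Capillaries of the lung are lined in mice by general capillary cells and by the large aerocytes that cover the gas exchange surface. Apelin is made mainly by aerocytes there, and its receptor sits on general capillary cells, where the receptor couples to G proteins and binds beta-arrestins. Plvap forms the diaphragms that span endothelial caveolae and fenestrae, and Gpihbp1 carries lipoprotein lipase across the capillary wall to the lumen. Cd34 and endomucin (Emcn) are sialomucins of the endothelial surface, and Esm1, Apln and Cxcr4 are known from the tip cells that lead sprouting vessels.

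Totals ran from 16806806 to 25980876 fragments a library, and the lowest fragment number of any of the 8 genes was 188, for Esm1. The targeted gene Arrb1 stood at 23.8% of the wild type level in hypoxic and 22.1% in normoxic beta-arrestin 1 -/- lungs. Arrb2 stood at 88.1% of wild type in hypoxic and 126% in normoxic libraries labelled beta-arrestin 2 -/-, and was not called in either comparison (edgeR adjusted p = 0.821 and 0.256), so the line is called by its label below. Arrb1 itself was at 61.3% of wild type in those normoxic libraries (edgeR adjusted p = 0.00435). Replicate 2 of the hypoxic beta-arrestin 1 -/- group stood apart. It had the lowest total, and its chi-square per degree of freedom against its mates was 97.4 and 84.8, where all other pairs of replicates lay between 9.01 and 61.7. Calls of the 8 genes that change without it are given both ways. All 22 pan-endothelial marker genes, Pecam1 and Cdh5 among them, were detected in every group, with summed levels of 9162 to 14098 CPM (counts scaled to library size with edgeR's TMM factors).

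Per length, in FPKM (fragments scaled by transcript length and library depth), Plvap was the highest of the 8 genes with a mean of 286 over all libraries, followed by Gpihbp1 with 268. Cd34 had 124 FPKM, Emcn 85.1, Cxcr4 49.6, Apln 24.8, Aplnr 21.7 and Esm1 15.6. Between libraries, Plvap covered a 12.2-fold and Esm1 an 11.7-fold range of FPKM, and the range of the others ran from 1.48-fold for Cxcr4 to 5.19-fold for Emcn.

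**Figure D1:**
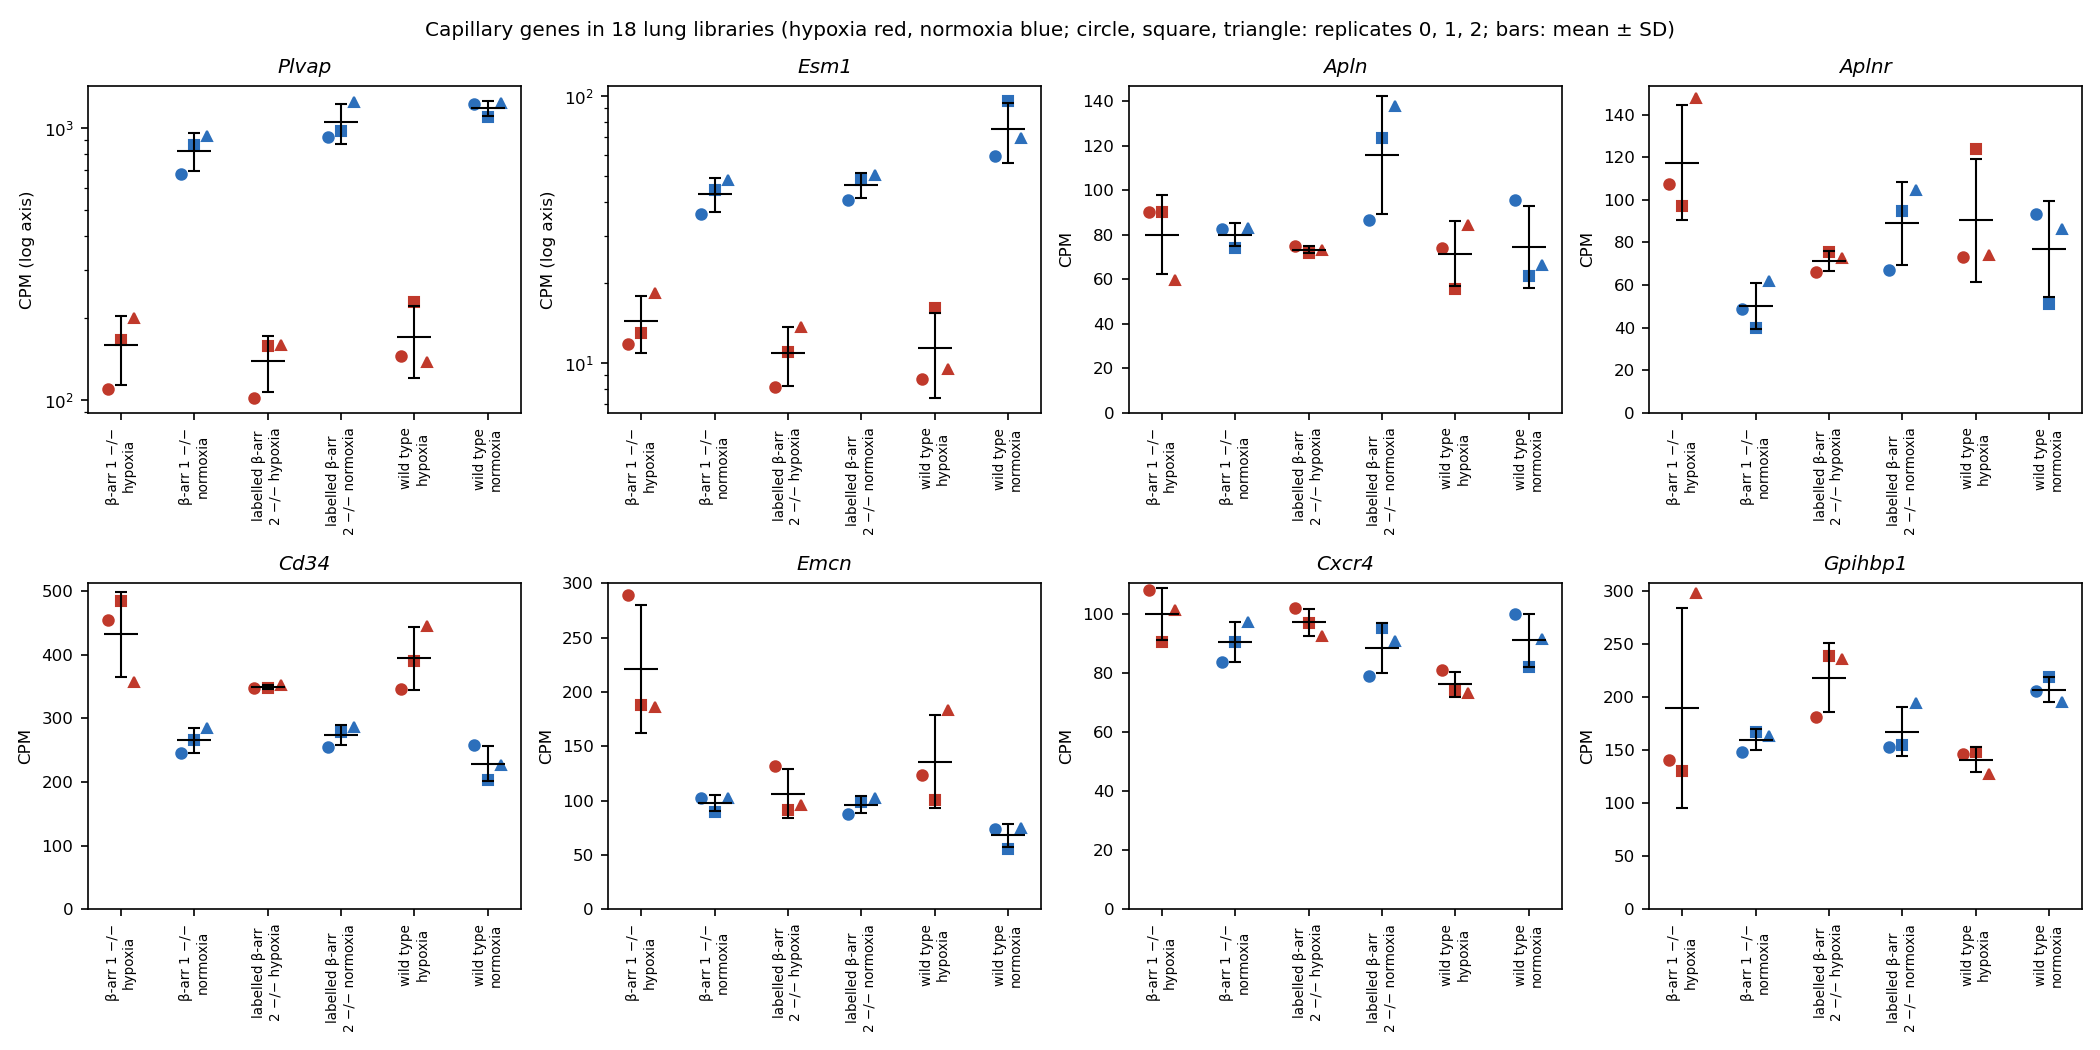
CPM of each gene (y axis, logarithmic for Plvap and Esm1 and from 0 for the others) in the 18 libraries, by group on the x axis. Points are libraries, shaped by replicate number, and bars are the mean ± SD of 3. For Plvap and Esm1 the hypoxic libraries lie apart from the normoxic ones, and in Gpihbp1 a single hypoxic beta-arrestin 1 -/- library stands at 298 CPM.

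Plvap (chr8:71497753-71511769, mm10) was low in all 9 hypoxic libraries. Plvap had 109.5, 166 and 199.8 CPM in hypoxic beta-arrestin 1 -/- lungs, against 679.8, 863 and 931 CPM in normoxic ones. It had 102, 157 and 159 CPM in hypoxic libraries labelled beta-arrestin 2 -/-, against 923, 976 and 1248 CPM in normoxic ones. Wild type lungs held 145, 229 and 138 CPM in hypoxia, against 1221, 1096 and 1232 CPM in normoxia. The highest hypoxic library of the 9 was thus below the lowest normoxic one, and the exposure separated the libraries in each genotype. The hypoxic level was 19.2%, 13.3% and 14.4% of the normoxic level in beta-arrestin 1 -/-, labelled beta-arrestin 2 -/- and wild type lungs. The log2 changes were -2.38 ± 0.25, -2.91 ± 0.25 and -2.79 ± 0.25 (edgeR estimate ± SE, 3 libraries against 3). Group means stood in the order wild type, labelled beta-arrestin 2 -/- and beta-arrestin 1 -/- in normoxia, then wild type, beta-arrestin 1 -/- and labelled beta-arrestin 2 -/- in hypoxia. Neighbours in that order overlapped except across the step between normoxia and hypoxia.

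Esm1 (endocan, a secreted proteoglycan; chr13:113209659-113218104, mm10) was low in the same 9 libraries, at a far smaller level. Esm1 had 11.8, 13.0 and 18.3 CPM in hypoxic beta-arrestin 1 -/- lungs, against 36.1, 44.5 and 48.5 CPM in normoxic ones. It had 8.15, 11.0 and 13.6 CPM in hypoxic libraries labelled beta-arrestin 2 -/-, against 40.7, 48.4 and 50.4 CPM in normoxic ones. Wild type lungs held 8.69, 16.0 and 9.52 CPM in hypoxia, against 59.4, 95.8 and 69.6 CPM in normoxia. Hypoxic and normoxic libraries did not overlap in any genotype, and the 3 normoxic wild type libraries lay above all others. The hypoxic level was 33.4%, 23.5% and 15.2% of the normoxic one in beta-arrestin 1 -/-, labelled beta-arrestin 2 -/- and wild type lungs, with log2 changes of -1.59 ± 0.25, -2.09 ± 0.26 and -2.72 ± 0.26. The highest mean, in normoxic wild type, did not overlap the next, in normoxic libraries labelled beta-arrestin 2 -/-, and the 3 hypoxic groups overlapped each other.

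Reads from a gene and from an overlapping gene on the other strand cannot be told apart with this kit. Plvap overlaps the end of Gtpbp3, whose level was 6.01 to 8.02 FPKM in the 18 libraries with log2 changes of 0.01 ± 0.11, 0.19 ± 0.11 and 0.03 ± 0.11 in the 3 genotypes, in the order above. Esm1 lies inside the annotated span of Gzmk, whose level was at most 0.573 FPKM. The lowest values of Plvap and Esm1 themselves were 49.8 and 3.81 FPKM. Cd34 has a deposited locus that runs on over the antisense gene Gm16897, whose level was at most 0.637 FPKM, and the start of A330023F24Rik, at most 2.10 FPKM.

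Promoters of 5 of the 8 genes were matched in RefSeq (GRCm38.p6), and those of Esm1, Cd34 and Emcn are shown, Esm1 for its low hypoxic level and Cd34 and Emcn because each rose in more than 1 genotype. Apln, called in the labelled line alone by edgeR, and Cxcr4, called in none, are given by their counts of matches. Each run is the 250 bases before an annotated start on the gene's strand, for Emcn the start of the deposited locus. Capitals mark matches to the core of the hypoxia response element, searched as ACGTG and GCGTG on both strands.
Esm1 (chr13:113209409-113209658, plus strand): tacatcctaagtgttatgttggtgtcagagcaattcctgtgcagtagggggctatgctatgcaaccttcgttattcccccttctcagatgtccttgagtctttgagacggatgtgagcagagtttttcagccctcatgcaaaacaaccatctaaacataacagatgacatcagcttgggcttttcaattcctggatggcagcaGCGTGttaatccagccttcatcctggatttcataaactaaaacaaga
Cd34 (chr1:194938571-194938820, plus strand): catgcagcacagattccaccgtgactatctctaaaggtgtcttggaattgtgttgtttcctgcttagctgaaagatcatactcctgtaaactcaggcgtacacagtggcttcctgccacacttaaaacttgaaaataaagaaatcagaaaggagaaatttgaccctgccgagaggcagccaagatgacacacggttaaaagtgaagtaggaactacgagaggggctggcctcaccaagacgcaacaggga
Emcn (chr3:137340828-137341077, plus strand): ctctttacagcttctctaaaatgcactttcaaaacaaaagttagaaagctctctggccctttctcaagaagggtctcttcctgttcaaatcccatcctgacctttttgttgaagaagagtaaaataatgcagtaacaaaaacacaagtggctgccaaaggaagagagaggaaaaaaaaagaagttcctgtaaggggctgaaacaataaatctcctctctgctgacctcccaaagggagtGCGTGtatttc
Esm1 held 1 match, 47 to 43 bases before the start, Emcn held 1, 11 to 7 bases before the end of its window, and Cd34 held 0. The RefSeq gene record of Emcn starts at 137341062 and that of GENCODE at 137341067. By those starts its match lies inside the gene. Cxcr4 held 1 and Apln 0 in their windows. Of 32851 promoter windows of this length, 38.6% held at least 1 match, so the 3 of 5 found here come from a motif that is common at promoters. The ETS core, GGAA or TTCC, was present 3 times in Esm1, 5 times in Cd34 and 4 times in Emcn, and 93.4% of all windows held it. A match of letters is a description and was not tested for binding.

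**Figure D2:**
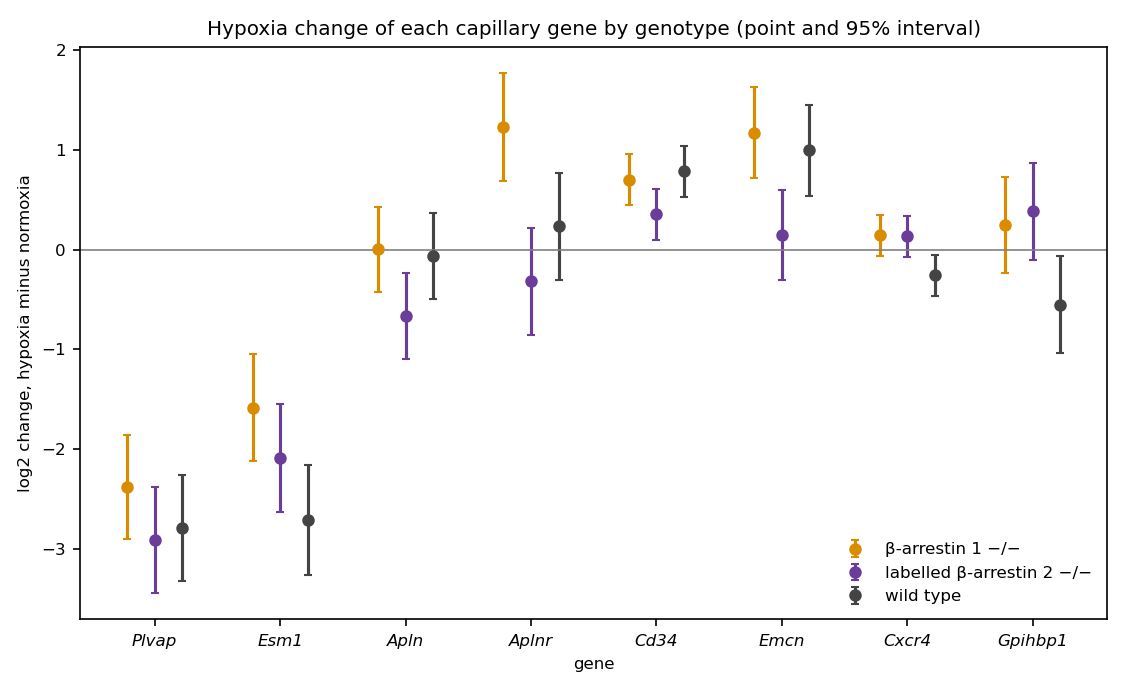
Log2 change of each gene, hypoxia minus normoxia (y axis), in beta-arrestin 1 -/-, labelled beta-arrestin 2 -/- and wild type lungs, with the 95% interval of the edgeR fit. Plvap and Esm1, chosen for this difference, lie between -2.91 and -1.59, Cd34 lies above 0 in each genotype, and the intervals of Apln in beta-arrestin 1 -/- and wild type lungs span 0.

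Of the 6 genes that were not picked for their hypoxia difference, Aplnr, Cd34 and Emcn rose in hypoxia in beta-arrestin 1 -/- lungs, Cd34 rose and Apln fell in the libraries labelled beta-arrestin 2 -/-, and Cd34 and Emcn rose in wild type. Thus 3 of 6 passed an adjusted p of 0.05 in beta-arrestin 1 -/- lungs, where 2.95% of all genes tested did, 2 of 6 in the labelled line, where 21.9% did, and 2 of 6 in wild type, where 4.76% did (edgeR's quasi-likelihood test, Benjamini-Hochberg over all genes). By direction, 1.84% of all genes rose and 1.11% fell in beta-arrestin 1 -/- lungs, 11.1% and 10.8% in the labelled line, and 2.85% and 1.92% in wild type. Libraries of the exposures did not overlap in CPM for 3 of 6, 2 of 6 and 4 of 6 genes, beside 21.2%, 47.9% and 24.7% of all genes. The 4 in wild type were Cd34, Emcn, Cxcr4 and Gpihbp1. In the labelled line the share called is near the background. By DESeq2 the same 2 genes were called, and no share of all genes is given for it. In a fit of the beta-arrestin 1 -/- libraries alone none of its 3 genes was called, with adjusted p of 0.0808 for Aplnr, 0.112 for Cd34 and 0.0677 for Emcn, and 47 of all genes tested were called there.

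Cd34 (chr1:194938821-194976959, mm10), also carried by haematopoietic progenitors and some fibroblasts, was higher in hypoxia in each of the 3 genotypes. Cd34 had 454, 485 and 357 CPM in hypoxic beta-arrestin 1 -/- lungs, against 245, 265 and 285 CPM in normoxic ones. It had 347, 348 and 353 CPM in hypoxic libraries labelled beta-arrestin 2 -/-, against 255, 279 and 286 CPM in normoxic ones. In wild type lungs Cd34 stood at 347, 390.2 and 445 CPM in hypoxia, against 257, 203 and 226 CPM in normoxia. All 9 hypoxic libraries lay above all 9 normoxic ones. The log2 changes were 0.70 ± 0.12 (adjusted p = 0.00668), 0.35 ± 0.12 (adjusted p = 0.0474) and 0.78 ± 0.12 (adjusted p = 0.00211) by edgeR in beta-arrestin 1 -/-, labelled beta-arrestin 2 -/- and wild type lungs. Each of the 3 hypoxic means overlapped its neighbour, as did the normoxic means, of which wild type was the lowest at 229 ± 27.3 CPM (SD, n = 3). In the labelled line the call of Cd34 was lost without any 1 of its 6 libraries (edgeR adjusted p of 0.0581 to 0.148). It was also lost without wild type normoxia replicate 2, wild type hypoxia replicate 1 or any 1 of the 3 normoxic beta-arrestin 1 -/- libraries (0.0544 to 0.0588). With the mean of the pan-endothelial genes as a covariate the adjusted p was 0.431, and the authors' deposited table gives q = 0.127 there.

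Emcn (chr3:137341078-137431069, mm10), which keeps leukocytes from adhering to the endothelium, rose in the beta-arrestin 1 -/- and wild type lungs. Emcn had 289, 188 and 186 CPM in hypoxic beta-arrestin 1 -/- lungs, against 102, 89.6 and 102 CPM in normoxic ones. It had 132, 91.3 and 95.9 CPM in hypoxic libraries labelled beta-arrestin 2 -/-, against 87.2, 99.1 and 102 CPM in normoxic ones. In wild type lungs Emcn stood at 124, 101 and 183 CPM in hypoxia, against 73.7, 55.6 and 75.0 CPM in normoxia. Hypoxic libraries lay above normoxic ones in beta-arrestin 1 -/- and wild type lungs and overlapped in the labelled line. The log2 changes were 1.17 ± 0.22 (adjusted p = 0.00841), 0.15 ± 0.21 (adjusted p = 0.65; 95% interval -0.31 to 0.60) and 1.00 ± 0.22 (adjusted p = 0.0157) by edgeR, in the order above. Without wild type normoxia replicate 1 or hypoxia replicate 2 the wild type adjusted p of Emcn was 0.0987 or 0.0818, and without beta-arrestin 1 -/- normoxia replicate 1 that of beta-arrestin 1 -/- lungs was 0.0538. The wild type call of Emcn was also lost with the mean of the pan-endothelial genes as a covariate. Of 29 alternative fits, Emcn was called in 25 in wild type and in 26 in beta-arrestin 1 -/- lungs. The difference of the responses, labelled beta-arrestin 2 -/- minus wild type, was -0.85 ± 0.30 for Emcn and did not pass (edgeR adjusted p = 0.0939). The highest mean, in hypoxic beta-arrestin 1 -/-, did not overlap the next, and the lowest, in normoxic wild type, did not overlap its neighbour.

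Other members of the sialomucin and selectin list were Podxl, which rose by 0.70 ± 0.22 on the log2 scale in the labelled line (adjusted p = 0.0311 by edgeR), and Spn, which rose by 0.84 ± 0.23 in wild type (adjusted p = 0.0497). Sele, the endothelial selectin that catches leukocytes, fell by 2.98 ± 0.39 in beta-arrestin 1 -/- lungs (adjusted p = 0.000978). Beside Cd34 and Emcn, 6 genes of that list were tested, of which 0 rose and 1 fell in beta-arrestin 1 -/-, 1 rose and 0 fell in the labelled line, and 1 rose and 0 fell in wild type lungs. Their median log2 changes were 0.26, -0.38 and 0.39, beside 0.02, -0.04 and 0.00 over all genes.

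Markers of other cell types also differed between exposures. Of 15 tested T and NK cell markers 0, 0 and 7 rose in hypoxia in beta-arrestin 1 -/-, labelled beta-arrestin 2 -/- and wild type lungs, and of 11 B and plasma cell markers 0, 0 and 4 rose. Neutrophil markers rose in 4, 2 and 1 of 11 and alveolar macrophage markers in 2, 1 and 2 of 11, in the same order of genotypes. Summed neutrophil markers were 206 to 387 CPM in hypoxic and 37.9 to 83.3 CPM in normoxic beta-arrestin 1 -/- libraries, and 168 to 429.7 against 32.5 to 120.2 CPM in wild type. Summed T and NK cell markers were 70.2 to 129 CPM in hypoxic and 30.3 to 66.8 CPM in normoxic wild type libraries, with none of these markers at 0 in any group. Summed cardiac muscle markers, of which none was called, were 1090 to 1925 CPM in hypoxic and 93.3 to 453 CPM in normoxic wild type libraries. In the other genotypes the exposures overlapped. The sums were 298 to 2327 against 783 to 2240 CPM in beta-arrestin 1 -/- lungs and 1852 to 3300 against 559 to 6917 CPM in the labelled line. Of 12 pericyte markers 2, 4 and 4 rose in the 3 genotypes, and summed levels were 1371 to 1548 CPM in hypoxic and 894 to 1153 CPM in normoxic wild type libraries. Of 9 club and secretory airway markers 6 rose in wild type, with a median log2 change of 5.99, 2 fell in the labelled line and 0 were called in beta-arrestin 1 -/- lungs. Summed levels of these 9 overlapped in wild type, at 5223 to 6580 CPM in hypoxic and 3664 to 5691 CPM in normoxic libraries. In the labelled line 6 of 9 mesothelial and 4 of 8 smooth muscle markers fell, and neither list had a call in the other genotypes. Of 10 fibroblast markers 3 rose and 4 fell in the labelled line and 1 rose in each of the others, beside summed levels of 6821 to 7852 CPM in hypoxic and 5664 to 7808 CPM in normoxic labelled libraries. Adipocyte markers rose in 1, 3 and 1 of 11, and of 9 alveolar type 1 markers 1 fell in the labelled line. The part of these cells in the results was not tested.

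Apln (apelin, the ligand; chrX:48025146-48034852, mm10) fell in the line labelled beta-arrestin 2 -/- and was not called in the other genotypes. Apln had 90.1, 90.5 and 59.5 CPM in hypoxic beta-arrestin 1 -/- lungs, against 82.8, 74.0 and 83.2 CPM in normoxic ones. It had 75.0, 71.8 and 73.1 CPM in hypoxic libraries labelled beta-arrestin 2 -/-, against 86.6, 123 and 138 CPM in normoxic ones. Wild type lungs held 74.1, 55.7 and 84.6 CPM in hypoxia, against 95.7, 61.7 and 66.6 CPM in normoxia. The exposures did not overlap in the labelled line, where 2 normoxic libraries held the highest values of all 18, and overlapped in both other genotypes. The log2 change in the labelled line was -0.66 ± 0.20 (edgeR adjusted p = 0.0295). It was -0.06 ± 0.20 in wild type, with a 95% interval of -0.49 to 0.37, and in beta-arrestin 1 -/- lungs the interval ran from -0.43 to 0.43. The call in the labelled line was lost without normoxia replicate 1 or 2 or any of the 3 hypoxia replicates (adjusted p of 0.076 to 0.113), and with the pan-endothelial covariate (0.112). All neighbouring group means of Apln overlapped.

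Aplnr (the apelin receptor; chr2:85136360-85139923, mm10) rose in beta-arrestin 1 -/- lungs, where its ligand was not called. Aplnr had 108, 96.9 and 148 CPM in hypoxic beta-arrestin 1 -/- lungs, against 48.7, 39.9 and 61.8 CPM in normoxic ones. It had 66.3, 75.5 and 72.7 CPM in hypoxic libraries labelled beta-arrestin 2 -/-, against 67.2, 94.9 and 105 CPM in normoxic ones. Wild type lungs held 73.0, 124 and 74.3 CPM in hypoxia, against 93.2, 51.3 and 86.3 CPM in normoxia. The exposures did not overlap in beta-arrestin 1 -/- lungs, which held both the highest and the lowest group mean, and overlapped in both other genotypes. The log2 changes were 1.23 ± 0.26 (adjusted p = 0.017), -0.32 ± 0.25 (adjusted p = 0.38) and 0.23 ± 0.25 (adjusted p = 0.696) by edgeR in beta-arrestin 1 -/-, labelled beta-arrestin 2 -/- and wild type lungs. Without hypoxia replicate 2, the library that stands apart, the change in beta-arrestin 1 -/- lungs was 1.03 with an adjusted p of 0.0567, and without normoxia replicate 0 or 1 the adjusted p was 0.0816 or 0.0981. The difference of the responses, beta-arrestin 1 -/- minus wild type, was 1.00 ± 0.36 and did not pass (edgeR adjusted p = 0.807). Normoxic beta-arrestin 1 -/- lungs did not overlap their neighbour in the order of means, and all others did.

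Beside Apln and Aplnr, 10 genes of the apelin pathway are reported. In beta-arrestin 1 -/- lungs 1 rose, in the labelled line 5 rose and in wild type 1 rose, and 0 fell in each. Mef2c, a transcription factor gene downstream of the receptor, rose by 0.66 ± 0.12 in beta-arrestin 1 -/- and by 0.62 ± 0.12 in wild type lungs (edgeR adjusted p = 0.00854 and 0.00822). Nos3, the endothelial nitric oxide synthase gene, rose by 0.96 ± 0.20 in the labelled line (adjusted p = 0.00406), as did Furin, of a protease known to process apelin in human cells, by 0.48 ± 0.13 (adjusted p = 0.0146). The median log2 changes of the 10 were 0.15, 0.41 and 0.06 in beta-arrestin 1 -/-, labelled beta-arrestin 2 -/- and wild type lungs.

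Cxcr4 (the receptor of the chemokine Cxcl12, also high on leukocytes; chr1:128588199-128592299, mm10) was not called in any genotype. Cxcr4 had 108, 90.5 and 101 CPM in hypoxic beta-arrestin 1 -/- lungs, against 83.8, 90.4 and 97.1 CPM in normoxic ones. It had 102, 96.7 and 92.6 CPM in hypoxic libraries labelled beta-arrestin 2 -/-, against 79.0, 95.3 and 90.8 CPM in normoxic ones. In wild type lungs Cxcr4 stood at 81.0, 74.2 and 73.2 CPM in hypoxia, against 99.9, 82.0 and 91.3 CPM in normoxia. The exposures overlapped in both beta-arrestin lines and lay apart by a narrow gap in wild type, with hypoxia lower. The log2 changes were 0.14 ± 0.10 (95% interval -0.06 to 0.35), 0.14 ± 0.10 (-0.07 to 0.34) and -0.26 ± 0.10 (-0.46 to -0.05), and none passed (edgeR adjusted p = 0.444, 0.322 and 0.147). Every group mean of Cxcr4 overlapped its neighbour. Its ligand gene Cxcl12 rose by 1.57 ± 0.30 in wild type (adjusted p = 0.00799), and its changes were 0.98 ± 0.30 in beta-arrestin 1 -/- lungs and 0.77 ± 0.30 in the labelled line (adjusted p = 0.0948 and 0.0723). Of the 8 tested genes of that axis beside Cxcr4, only Cxcl12 in wild type passed in any of the 3 hypoxia comparisons by this test.

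Gpihbp1 (chr15:75596658-75598213, mm10) had opposite signs of change in wild type and in the labelled line, neither of which passed in the fit of all libraries. Gpihbp1 had 141, 130.0 and 298 CPM in hypoxic beta-arrestin 1 -/- lungs, against 148, 167 and 164 CPM in normoxic ones. It had 181, 238 and 235 CPM in hypoxic libraries labelled beta-arrestin 2 -/-, against 153, 155 and 194 CPM in normoxic ones. Wild type lungs held 147, 148 and 128 CPM in hypoxia, against 205, 219 and 195 CPM in normoxia. The wild type exposures did not overlap, with hypoxia lower, and the value of 298 CPM belongs to the library that stands apart. The log2 changes were 0.25 ± 0.23 (adjusted p = 0.595), 0.38 ± 0.23 (adjusted p = 0.231) and -0.55 ± 0.23 (adjusted p = 0.192) by edgeR in beta-arrestin 1 -/-, labelled beta-arrestin 2 -/- and wild type lungs. All neighbouring group means overlapped.

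The fits share one estimate of the spread of Gpihbp1 over all libraries, and that one library widens it. Without it the log2 changes were -0.24 ± 0.13, 0.40 ± 0.12 and -0.56 ± 0.12, and those of the labelled line and wild type passed (edgeR adjusted p = 0.0154 and 0.0104, with 0.421 in beta-arrestin 1 -/- lungs). The difference of the responses of Gpihbp1, labelled beta-arrestin 2 -/- minus wild type, was 0.93 ± 0.32 with all libraries (adjusted p = 0.0884) and 0.96 ± 0.16 without that library (adjusted p = 0.00396). In hypoxia, the labelled line was above wild type by 0.63 ± 0.23 with all libraries (adjusted p = 0.25) and by 0.64 ± 0.12 without it (adjusted p = 0.0105). The authors' deposited table gives q = 0.00494 for the wild type hypoxia comparison of Gpihbp1 and q = 0.00124 for the labelled line against wild type in hypoxia.

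**Figure D3:**
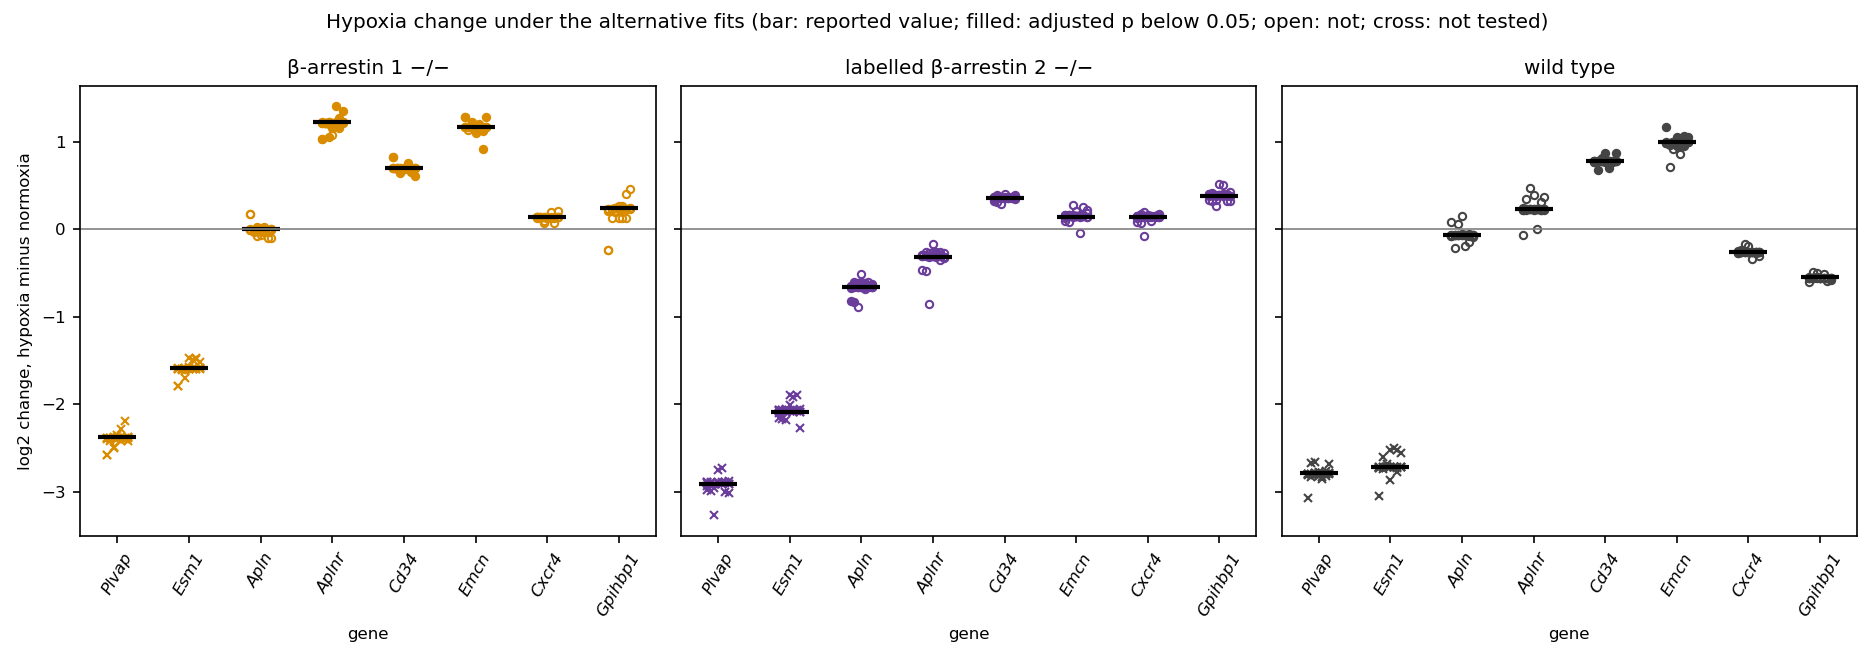
Log2 change, hypoxia minus normoxia (y axis), of each gene under the alternative fits, in panels for beta-arrestin 1 -/-, labelled beta-arrestin 2 -/- and wild type lungs. Black bars are the reported values, filled points passed an adjusted p of 0.05 and open points did not, and crosses mark Plvap and Esm1, which were not tested. Cd34 in wild type is filled throughout, and Gpihbp1 in beta-arrestin 1 -/- lungs lies below 0 in the 2 fits without hypoxia replicate 2 of that group.

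Genes that act with Gpihbp1 in the handling of lipoprotein lipase did not share 1 direction. Lpl itself rose by 0.98 ± 0.27 in the labelled line (edgeR adjusted p = 0.0183), with changes of 0.11 ± 0.27 in beta-arrestin 1 -/- and -0.40 ± 0.27 in wild type lungs. Angptl4, whose product inhibits the lipase, fell by 1.83 ± 0.37 in beta-arrestin 1 -/- lungs and fell by 1.68 ± 0.37 on the log2 scale in wild type lungs (adjusted p = 0.0148 and 0.0178). Cd36, a fatty acid transporter gene, fell by 0.82 ± 0.17 in wild type (adjusted p = 0.0122), and Fabp5 rose by 1.42 ± 0.32 in beta-arrestin 1 -/- and by 1.67 ± 0.32 in wild type lungs (adjusted p = 0.0249 and 0.00807). In all, of 10 genes tested 1 rose and 1 fell in beta-arrestin 1 -/- lungs, 1 rose and 0 fell in the labelled line, and 1 rose and 2 fell in wild type.

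The genotypes were also compared at each exposure. These comparisons use the same libraries that led to the choice of Plvap and Esm1. Of the 8 genes, 0 passed in each of the 4 comparisons (edgeR). In normoxia, 4 had an unadjusted p below 0.05 in beta-arrestin 1 -/- against wild type and 3 in the labelled line against wild type, beside 8.71% and 31.6% of all genes. In hypoxia there were 2 and 2, beside 11.3% and 11.7%. Plvap and Esm1 were among the 4 genes in normoxia, and Esm1 was among the 3. Genes called at an adjusted p below 0.05 made up 0.221% and 9.49% of all genes in normoxia and 0.201% and 0.923% in hypoxia. By DESeq2, 0 and 2 genes (Esm1 and Apln) were called in normoxia, and 1 and 1 (Cxcr4 both times) in hypoxia. The shares above are edgeR's and none is given for DESeq2, so the calls of DESeq2 cannot be set against a background. Among fits other than those without 1 library, up to 199 and 3176 of all genes were called in normoxia. In hypoxia these were up to 155 and 481. Libraries did not overlap between beta-arrestin 1 -/- and wild type for 4 of 8 genes in normoxia and 2 of 8 in hypoxia, beside 22.6% and 9.79% of all genes. Between the labelled line and wild type they did not overlap for 3 and 2 of 8, beside 44.1% and 17.5%.

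The normoxic values of Esm1 and Plvap entered their choice, so their p-values and q-values in normoxia are not independent of it. Of the 8 genes, Esm1 had the largest estimated normoxic difference from wild type in both lines, in edgeR's fit of all libraries. Its log2 difference from wild type was -0.80 ± 0.24 in normoxic beta-arrestin 1 -/- lungs (edgeR adjusted p = 0.27) and -0.69 ± 0.24 in the normoxic labelled line (adjusted p = 0.0761), and in hypoxia the differences were 0.33 ± 0.25 and -0.06 ± 0.25. The authors' deposited table gives q = 0.00124 for Esm1 in both normoxic comparisons. Apln differed from wild type by 0.64 ± 0.20 in the normoxic labelled line (edgeR adjusted p = 0.0566). Without the library that stands apart, which enters through the shared spread, Esm1 and Apln passed in the normoxic labelled line, with log2 differences of -0.71 ± 0.23 and 0.62 ± 0.18 (edgeR adjusted p = 0.0349 and 0.0236). Plvap differed from wild type by -0.52 ± 0.23 in normoxic beta-arrestin 1 -/- lungs (edgeR adjusted p = 0.539), where the authors' deposited table gives q = 0.0334. Emcn differed from wild type by 0.52 ± 0.21 and 0.50 ± 0.21 in the normoxic beta-arrestin 1 -/- and labelled libraries, without overlap, and neither difference passed (edgeR adjusted p = 0.477 and 0.127). Marker lists also differed between the normoxic labelled line and wild type. There 6 of 22 pan-endothelial genes were lower and 0 higher (edgeR), with a median log2 difference of -0.35. Of 13 venous and systemic genes 5 were lower and 0 higher. Of 9 club and secretory airway markers 7 were higher and 0 lower, and of 8 smooth muscle markers 6 and 0. In normoxic beta-arrestin 1 -/- lungs 0 pan-endothelial genes were called. The part of these cells in the differences was not tested. In hypoxia, Cxcr4 was above wild type by 0.39 ± 0.10 in beta-arrestin 1 -/- and by 0.35 ± 0.10 in the labelled line, in every library, at edgeR adjusted p of 0.164 and 0.11 and DESeq2 adjusted p of 0.0226 and 0.0244.

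The difference of the hypoxia responses from that of wild type was tested for the 6 genes not picked on hypoxia, and 0 passed for either line (edgeR), where 0% of all genes were called for beta-arrestin 1 -/- and 6.05% for the labelled line. An unadjusted p below 0.05 was found for 3 of 6 in beta-arrestin 1 -/-, beside 5.84% of all genes, and for 4 of 6 in the labelled line, beside 26.4%. Among fits other than those without 1 library, up to 9 of all genes were called for beta-arrestin 1 -/- and up to 1880 for the labelled line. DESeq2, for which no share of all genes is given, called 0 for beta-arrestin 1 -/-, and Cxcr4 and Gpihbp1 for the labelled line. Cxcr4 differed there by 0.39 ± 0.14 with all libraries and by 0.42 ± 0.13 without the library that stands apart (edgeR adjusted p = 0.0902 and 0.0432). For Plvap and Esm1, picked on the hypoxia responses themselves, the differences are given without a test. Beta-arrestin 1 -/- minus wild type, the log2 difference was 0.41 ± 0.33 for Plvap and 1.13 ± 0.35 for Esm1, and for the labelled line minus wild type it was -0.12 ± 0.33 and 0.63 ± 0.35.

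**Figure D4:**
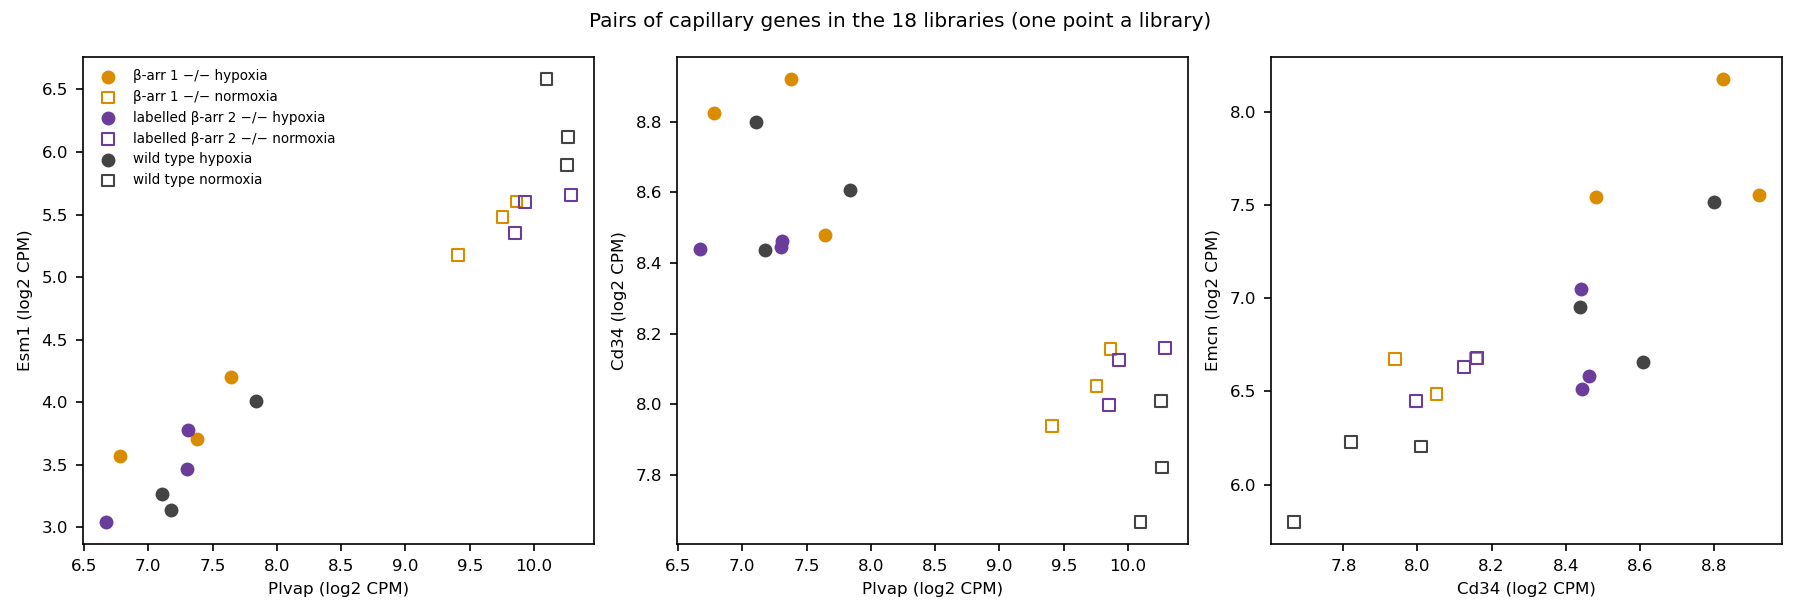
Log2 CPM of Esm1 against Plvap, of Cd34 against Plvap and of Emcn against Cd34, a point a library, with filled circles for hypoxia, open squares for normoxia and colours for genotype. In the first panel the hypoxic and normoxic libraries form separate clusters, and in the second Cd34 is high where Plvap is low.

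Within groups, after each library was set against the mean of its group, Plvap and Esm1 varied together over the 18 libraries (Pearson r = 0.76, and 0.712 without the library that stands apart). Apln and Cd34 had r = 0.733, or 0.618 without it, and Plvap and Emcn had r = -0.666, or -0.633 without it. Of 28 pairs, 6 had r above 0.5 and 4 below -0.5 over 18 libraries, and 9 and 2 over the 17 without that library. Cd34 and Gpihbp1 had r = -0.571 with it and -0.069 without it. The points of each pair share library, depth and scaling, and groups hold 3 libraries, so these values only describe these libraries.

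The patterns most like each gene were sought by Pearson r of log2 CPM over the 18 libraries among 12525 genes. For Plvap and Esm1 this mostly measures the step between exposures. Plvap was closest to Esm1 and to Cx3cl1, the gene of the endothelial and epithelial chemokine fractalkine (r = 0.972 each), then to Olfm2 with 0.955. Esm1 was next closest to Olfm2 with 0.948. Cx3cl1 had log2 changes of -1.04 ± 0.12, -0.96 ± 0.12 and -0.84 ± 0.12 in beta-arrestin 1 -/-, labelled beta-arrestin 2 -/- and wild type lungs. It was found through its likeness to Plvap in these libraries, so these values are a description without a test. Cd34 was closest to Slc26a10 with 0.936 and Bmp3 with 0.918, and further down, with 0.914, to Sox17, a transcription factor gene of arterial endothelium. Emcn was closest to the tubulin gene Tubb2a with 0.917, and Gpihbp1 to Grap with 0.923 and to Ramp2, one of the pan-endothelial genes, with 0.912. Without the library that stands apart the values of Gpihbp1 were 0.891 and 0.876. Apln, Aplnr and Cxcr4 had no gene above 0.769, 0.882 and 0.833.

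Pan-endothelial genes are transcripts shared by endothelial cells. Their levels can follow the number of cells or the RNA per cell, which cannot be told apart here. Of 22 pan-endothelial genes 0 rose and 0 fell in beta-arrestin 1 -/- lungs, 9 rose and 0 fell in the labelled line, and 0 rose and 1 fell in wild type, with medians of 0.10, 0.33 and -0.12 on the log2 scale. The one that fell in wild type was Eng, by 0.64 ± 0.16 (edgeR adjusted p = 0.0302), and among those that rose in the labelled line were Pecam1, by 0.51 ± 0.11, and Ptprb, by 0.82 ± 0.18 (adjusted p = 0.00457 and 0.00637). Summed pan-endothelial levels were 13182 to 13870 CPM in hypoxic and 11726 to 12996 CPM in normoxic beta-arrestin 1 -/- lungs. They were 12732 to 13052 against 9162 to 11153 CPM in the labelled line, and 9879 to 12547 against 12510 to 14098 CPM in wild type. Set against the mean log2 level of these genes, Plvap lay between -1.84 and -0.91, between -1.87 and -1.21 and between -1.33 and -0.68 in hypoxia, against 1.02 to 1.31, 1.76 to 1.95 and 1.56 to 1.79 in normoxia, in the same order of genotypes.

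Among 9 tested genes of caveolae beside Plvap, 0 rose in beta-arrestin 1 -/- lungs, 2 in the labelled line and 1 in wild type, and 0 fell in any. Cav1, the caveolin of endothelium, had changes of 0.03 ± 0.13, 0.30 ± 0.13 and -0.27 ± 0.13, none of which passed (edgeR adjusted p = 0.912, 0.0985 and 0.256), and Nostrin rose by 0.44 ± 0.12 in wild type (adjusted p = 0.04). Among 23 tested genes of tip cells beside Esm1, Apln and Cxcr4, 4 rose and 0 fell in beta-arrestin 1 -/-, 5 rose and 2 fell in the labelled line, and 4 rose and 1 fell in wild type lungs. Plod1, a collagen lysine hydroxylase gene, rose by 0.54 ± 0.09, 0.94 ± 0.09 and 0.45 ± 0.09 (adjusted p = 0.00457, 2.73e-05 and 0.00925), and Unc5b, a netrin receptor gene, rose by 1.07 ± 0.15 in wild type (adjusted p = 0.000815). Dll4, the Notch ligand of tip cells, fell by 1.05 ± 0.21 in wild type (adjusted p = 0.0102), and Angpt2 fell by 0.70 ± 0.17 in the labelled line (adjusted p = 0.0101).

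Markers of capillary and venous cells also split. Of 8 tested general capillary genes beside Plvap, Aplnr and Gpihbp1, 1 rose and 1 fell in beta-arrestin 1 -/-, 3 rose and 1 fell in the labelled line, and 2 rose and 1 fell in wild type lungs. Hilpda, of a lipid droplet protein, fell by 0.98 ± 0.25 on the log2 scale in beta-arrestin 1 -/- lungs, fell by 1.00 ± 0.25 in the labelled line and fell by 1.64 ± 0.25 in wild type (edgeR adjusted p = 0.0435, 0.0113 and 0.00207), and Sema3c rose by 0.86 ± 0.21, 1.43 ± 0.21 and 0.98 ± 0.21 (adjusted p = 0.0333, 0.000438 and 0.0136). Of 13 aerocyte genes beside Apln, 1 rose and 1 fell, 3 rose and 1 fell, and 0 rose and 3 fell in the 3 genotypes. Tmeff2 fell in each, with log2 changes of -1.20 ± 0.21, -0.86 ± 0.21 and -1.10 ± 0.21 (adjusted p = 0.00678, 0.00923 and 0.00677), and Ednrb, the endothelin receptor gene, fell by 1.00 ± 0.21 in wild type (adjusted p = 0.0124). Of 13 venous and systemic genes beside Plvap, 0 rose and 2 fell, 3 rose and 2 fell, and 1 rose and 3 fell. Vcam1, a leukocyte adhesion gene, fell with log2 changes of -1.10 ± 0.13, -1.27 ± 0.13 and -0.94 ± 0.13 (adjusted p = 0.000444, 6.31e-05 and 0.00092). Slc6a2, the noradrenaline transporter gene, fell in beta-arrestin 1 -/- and wild type lungs, with log2 changes of -1.60 ± 0.28 and -1.70 ± 0.28 (adjusted p = 0.00747 and 0.00347), and its change was 0.62 ± 0.28 in the labelled line (adjusted p = 0.115). Of 14 arterial genes 3 rose and 0 fell, 3 rose and 1 fell, and 5 rose and 2 fell, and of 10 genes of the VEGF system 1, 6 and 2 rose and 0 fell.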

How the data were processed

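Mouse lung RNA was read in 18 poly(A) libraries, and FastQC, TopHat and Cuffdiff on mm10 are named in the submitters' processing notes. The sources used here give no versions of them. The deposited fragment table gives the authors' estimated counts per gene and library (93.3% of them whole) and FPKM. The authors' deposited comparison table gives p-values and q-values and a test score, of which only the sign was used. Estimated counts were rounded to whole numbers, 5 features with status HIDATA were left out and 20 with status FAIL in some library were kept.

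Genes were tested with edgeR 4.0.16 (quasi-likelihood test, TMM scaling, filterByExpr, 1 fit of the 6 groups, Benjamini-Hochberg adjustment over 15388 genes) in R 4.3.3. CPM were scaled by the TMM factors, and log2 CPM used a prior count of 2. Alternatives were limma 3.58.1 on log2 FPKM with a pseudocount of 1 or 0.1, DESeq2 1.42.0 and its scaling put into edgeR, tests without the filter on low counts, fits of the compared groups alone, a replicate block, the pan-endothelial mean as a covariate, and leaving out each library. Figures were drawn with matplotlib 3.10.9. On simulated counts for hypoxia in wild type over 15272 genes, with 50 changed genes per size, edgeR recovered 34% at 1.5-fold, 76% at 2-fold, 98% at 4-fold and 100% at 7-fold. Of its calls 1.28% were false, and of those of DESeq2 11.1% were. The simulation was 1 run with 1 spread per gene in all groups and no library that stands apart. These rates may therefore not hold for the calls in the real libraries.

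The 8 genes and the gene lists were chosen with earlier results of these data known. Named genes were the 8, Arrb1 and Arrb2, the genes of most similar pattern (mean log2 CPM 1 or more), and in each list the genes of smallest adjusted p in each hypoxia comparison. A gene of the apelin pathway list is not reported here.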

Additional observations from a re-analysis of the deposited data

How the results depend on the processing

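Each of the 9 comparisons was recomputed under 29 alternatives, 18 of which left out 1 library. Over 2088 values of the 8 genes, 36 past the threshold were lost, 31 were gained, 0 called values changed sign, and 59 changed sign while uncalled both times. The causes were not tested. The hypoxia values of Plvap and Esm1, given without a test, are among the 2088 but were not counted as lost or gained. In wild type hypoxia, 2 of 6 genes became 1 with the pan-endothelial covariate, and at the lowest 1 without single libraries. In beta-arrestin 1 -/- hypoxia, 3 became 0 in the fit of the compared groups alone, and 1 to 3 without single libraries. In the labelled line's hypoxia comparison, 2 became 1 without a filter. The count was 0 there with limma on log2(FPKM + 1) with no minimum or with the covariate, and at the lowest 0 without single libraries. Without the library that stands apart, Gpihbp1 was gained in wild type and in the labelled line, as given above.

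In the genotype comparisons, each at 0, the labelled line against wild type in normoxia gave 2 by DESeq2, 2 in the fit of the compared groups alone and 0 to 2 without single libraries, and in hypoxia 1 by DESeq2 and 0 to 1 without single libraries. Beta-arrestin 1 -/- against wild type in hypoxia gave 1 by DESeq2. The difference of responses for the labelled line gave 2 by DESeq2, 1 in the fit of the compared groups alone and 0 to 2 without single libraries. Leaving out the 2 libraries of lowest total, chosen after seeing the data, gave 1, 2 and 1 in these 3 comparisons of the labelled line.

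The labels do not say whether replicate numbers pair the samples. Correlations of same-numbered deviations ran from -0.212 to 0.464 over the comparisons. They were all below 0 for hypoxia in beta-arrestin 1 -/- lungs. All were above 0 for hypoxia in the labelled line and for that line against wild type in normoxia. The other comparisons had both signs. With the replicate block, the labelled line gave 1 of 6 in hypoxia and 1 of 8 against wild type in normoxia (Esm1). With the replicate block in the compared groups alone, the count was 0 for beta-arrestin 1 -/- hypoxia, 2 for either line against wild type in normoxia (Esm1 and Emcn) and 1 for the difference of responses of the labelled line (Gpihbp1). The normoxic values of Esm1 entered its choice. No share of all genes is given for each alternative fit here, so these counts of the 8 genes cannot be set against a background. Only the ranges over fits are given below.

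Counts over all genes moved more. Without single libraries, calls ran from 133 to 511 around 454 in beta-arrestin 1 -/- hypoxia, 1710 to 5246 around 3370 in the labelled line and 209 to 1168 around 733 in wild type. Under the other alternatives they ran from 4 to 841, 344 to 4255 and 360 to 1455. For the genotype comparisons without single libraries they ran from 15 to 50 around 34 and 20 to 34 around 31 for beta-arrestin 1 -/- in normoxia and hypoxia, and from 316 to 3964 around 1460 and 52 to 298 around 142 for the labelled line. Under the other alternatives these ran from 27 to 199 and 2 to 155 for beta-arrestin 1 -/-, and from 17 to 3176 and 55 to 481 for the labelled line. The difference of responses ran from 0 to 1 around 0 without single libraries and 0 to 9 otherwise for beta-arrestin 1 -/-, and from 313 to 2591 around 931 and 3 to 1880 otherwise for the labelled line.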
